A study of Mus musculus with 9 samples.

Results

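The 6 genes described here encode G-protein-coupled receptors that microglia carry: Gpr34, Gpr183 and Gpr84, which began as orphan receptors, and the adhesion receptors Adgrg1, Adgre1 and Adgre5. They were chosen by name, with earlier results of these data known. All 6 were found by gene number among the 36528 gene numbers in each of the 9 libraries. All 6 also passed the filter on low counts that left 12250 genes to test. The RNA came from mouse brain at 11 to 12 months of age, from myeloid cells sorted for Cd11b. Wild-type littermates without the transgene gave 4 libraries (females for libraries 1 and 2, males for 3 and 4). Tau-P301L mice gave 5 libraries (females for 1 and 2, males for 3, 4 and 5). Their transgene encodes tau with the P301L mutation, which occurs in inherited frontotemporal dementia. The promoter that drives the transgene is not given in the sources used here. No label ties each library to a separate animal or states pooling, so p-values measure the spread between these samples only, which may be technical. Libraries are named by group and number.

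G-protein-coupled receptors cross the membrane 7 times and pass a signal from outside the cell to G proteins within it. Gpr34 is a receptor for lysophosphatidylserine, Gpr183 (also called EBI2) guides immune cells along gradients of oxysterols, and Gpr84 responds to medium-chain fatty acids and is known for its induction in inflamed myeloid cells. Adhesion receptors join such a membrane core to a long outer part that binds matrix or other cells and is often cut from the core by the receptor itself. Adgrg1 (GPR56) binds transglutaminase 2 and collagen III, Adgre1 is F4/80, the classical surface marker of mouse macrophages, and Adgre5 (CD97) binds the complement regulator CD55.

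Reads counted in genes numbered 1494727 to 3793606 per library, and 3 reads correspond to 0.791 to 2.01 CPM (read counts scaled to a common library total). Wild-type libraries held 2.68 to 3.79 M reads and Tau-P301L libraries 1.49 to 2.93 M. Tau-P301L libraries 3 and 5 correlated least with the rest (mean Pearson r across genes of 0.844 and 0.835, against 0.864 to 0.896 for the other libraries), so estimates without both are given beside the results for Gpr34, Gpr183, Gpr84 and Adgrg1. All 10 microglial markers passed the filter on low counts, with summed levels of 10800 to 14700 CPM in wild-type and 8600 to 15200 CPM in Tau-P301L libraries. In these bulk samples, fewer cells of a type and less RNA per cell cannot be told apart.

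RefSeq promoter sequence (GRCm38.p6) was matched for 3 of the 6 genes, Gpr183, Gpr84 and Adgrg1. The 250 bases before the listed start are shown for Gpr183 and Adgrg1, which had the 2 lowest genotype estimates, and for Gpr84 beside them. The annotated Gpr84 gene reaches to 103310670, so most of its window lies inside the gene. All 3 windows run 5′ to 3′ on the gene's own strand. Capitals mark matches, on either strand, to 5 short motifs: AGGAAGT (PU.1 and other ETS factors), TGANTCA (AP-1), TGTGGT (RUNX), TGACGTCA (CRE) and CCAAT (NF-Y). For Adgrg1, with 2 starts among the promoter sequences, the window of the second start is printed. Both starts lie inside the annotated gene, which begins at 94974756.
Gpr183, chr14:121965194-121965443, minus strand: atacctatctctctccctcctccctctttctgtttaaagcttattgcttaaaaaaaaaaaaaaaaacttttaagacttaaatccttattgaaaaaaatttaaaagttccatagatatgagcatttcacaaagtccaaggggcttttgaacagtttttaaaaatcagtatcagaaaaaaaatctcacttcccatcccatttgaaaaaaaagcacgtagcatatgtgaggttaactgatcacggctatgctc
Adgrg1, second start, chr8:94984149-94984398, plus strand: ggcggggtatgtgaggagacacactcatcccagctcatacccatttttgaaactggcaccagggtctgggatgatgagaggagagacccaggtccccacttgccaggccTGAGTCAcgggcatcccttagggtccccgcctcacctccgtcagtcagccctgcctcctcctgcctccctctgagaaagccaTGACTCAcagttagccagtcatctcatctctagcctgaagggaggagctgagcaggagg
Gpr84, chr15:103310439-103310688, minus strand: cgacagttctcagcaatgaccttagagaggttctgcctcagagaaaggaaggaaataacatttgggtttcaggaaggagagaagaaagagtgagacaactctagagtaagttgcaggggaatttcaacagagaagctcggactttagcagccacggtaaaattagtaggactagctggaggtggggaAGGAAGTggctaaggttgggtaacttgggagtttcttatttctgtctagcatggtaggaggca
The Gpr183 window held none of the 5 motifs and had a GC content of 32.0%, lower than all but 2.38% of the 32851 promoter windows in the table, whose median is 52.4%. The Adgrg1 window held AP-1 matches that begin 141 and 59 bases before the start. Of all windows 6.75% held at least 1 AP-1 match. The first Adgrg1 start held no match to any of the 5 motifs. In Gpr84 a single PU.1 match began 63 bases before the listed start, inside the annotated gene, and 7.69% of all windows held one. RUNX, CRE and NF-Y motifs were in 14%, 1.55% and 33.8% of all windows and in none of those of the 3 genes. These matches describe letters in the windows, and binding was not measured.

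Levels of different genes were compared per transcript length, as the size-factor-adjusted RPKM the authors deposited. In the wild-type libraries Gpr34 was the highest of the 6 at 23.8 ± 7.17 RPKM (SD, n = 4), and its lowest library (15.6 RPKM) lay above the highest library of each of the other genes. Adgrg1 followed at 9.98 ± 2.22 RPKM, with a lowest library of 7.41 RPKM. Gpr183 at 6.17 ± 1.07 and Adgre1 at 5.77 ± 0.99 RPKM were next and overlapped in range. Gpr84 stood at 3.45 ± 1.4 RPKM, and its highest library (4.70) overlapped the lowest of Adgre1 (4.38) but not that of Gpr183 (4.92). Adgre5 was far below the rest at 0.303 ± 0.208 RPKM. In Tau-P301L libraries the order was Gpr34 (21 ± 9.07 RPKM, SD, n = 5), Adgrg1 (7.24 ± 1.71), Adgre1 (6.13 ± 0.279), Gpr183 (3.72 ± 0.55), Gpr84 (3.1 ± 0.744) and Adgre5 (0.297 ± 0.14). There the ranges of Adgrg1 and Adgre1 overlapped, as did those of Gpr183 and Gpr84, while Adgre1 and Gpr183 did not overlap.

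Set beside the other adhesion receptors and a list of myeloid class A receptors (the large family of small-ligand receptors), 64 genes in all, Gpr34 ranked 5 by mean RPKM over the 9 libraries. The microglial receptors Cx3cr1, P2ry12 and P2ry13 were at ranks 1 to 3. Adgrg1 ranked 11, Adgre1 13, Gpr183 15 and Gpr84 17. Adgre5 ranked 36 at 0.3 RPKM, beside adhesion receptors such as Adgrl3. Adgrg1 and Adgre1 were the highest of the 27 adhesion receptors listed, and the next, the latrophilin Adgrl1, stood at 1.02 RPKM.

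**Figure D1:**
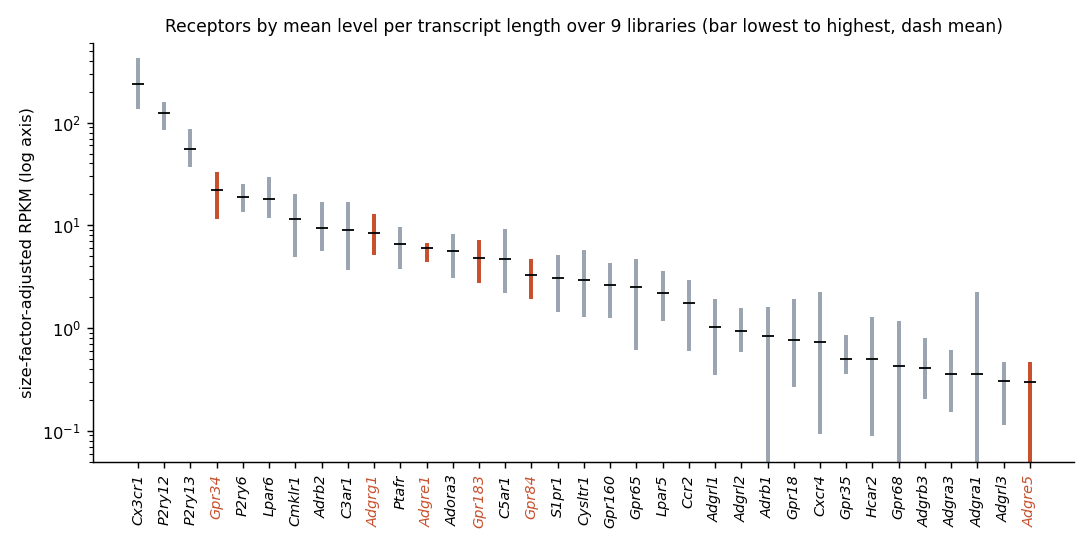
Mean size-factor-adjusted RPKM (log axis) of 35 of the 36 highest of 64 receptors over the 9 libraries, with bars from the lowest to the highest library and the 6 described genes in orange. A bar that reaches the bottom of the axis has a lowest value under 0.05 RPKM. Gpr34 is at rank 5 with 22.3 RPKM, and Adgre5 last at 0.3.

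The genotype comparison asks which transcripts of brain myeloid cells differ when the mice carry mutant tau. None of the 6 receptors passed an adjusted p of 0.05 in edgeR's quasi-likelihood test with a term for sex, which called 0.00816% of all genes tested (1 of 12250, higher) and 0% in the lower direction. With DESeq2, which called 0.22% of genes, and with limma-voom, 0 of the 6 passed as well. At an unadjusted p under 0.05 edgeR marked 1 of the 6, Gpr183 in the lower direction, against 6.35% of all genes (2.78% lower and 3.57% higher). Estimates were lower in Tau-P301L for 5 of the 6 and higher for Adgre1. The median log2 fold change of the 6 was -0.15, and that of all genes was -0.00.

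Gpr183 (gene number 321019, chromosome 14, 121952331 to 121965193 in GRCm38.p6) showed the lowest estimate. Wild-type libraries 1 to 4 held 88.9, 83.2, 58.9 and 70.1 CPM after TMM scaling, a correction for library composition. Tau-P301L libraries 1 to 5 held 47.3, 47.8, 46.2, 50.5 and 32.8 CPM. All 5 Tau-P301L values were thus below all 4 wild-type values, and the gap between the groups ran from 50.5 to 58.9 CPM. Groups without overlap were seen for 1 of the 6 receptors and for 2.48% of all genes tested, 1.18% in the lower direction. The group means were 75.26 ± 13.4 (SD, n = 4) and 44.93 ± 6.95 CPM (SD, n = 5), with a log2 fold change of -0.70 (SE 0.27), an unadjusted edgeR p of 0.0167 and an adjusted p of 0.733. Of the genes with a lower estimate, 108 had a p as small or smaller, Gpr183 included. An exact permutation test of mean log2 CPM, two-sided, gave p = 0.00794, the smallest that 4 libraries against 5 allow. This p restates that the groups did not overlap and is not separate support. Gpr183 had the smallest p of 6 genes chosen with earlier results known, and it did not pass once all genes were considered.

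The counts behind Gpr183 were 154 to 290 reads in wild-type and 47 to 149 reads in Tau-P301L libraries. The groups stayed apart under TMM, RLE and upper-quartile scaling and in the authors' RPKM (4.92 to 7.23 against 2.76 to 4.18), but touched in CPM without library scaling (53.5 to 91.7 against 31.8 to 55.5; exact permutation p = 0.0159). In females alone the log2 fold change was -0.86 (edgeR, unadjusted p = 0.0425, adjusted p = 0.93) and in males alone -0.57 (unadjusted p = 0.211, adjusted p = 0.918). Females gave 2 libraries of each genotype, and males 2 wild-type and 3 Tau-P301L libraries. The sexes were not shown to differ in this effect (interaction 0.28, SE 0.57, edgeR unadjusted p = 0.63). Without Tau-P301L libraries 3 and 5 the log2 fold change over both sexes was -0.65 (edgeR unadjusted p = 0.0313, adjusted p = 0.992). The microglial markers also leaned lower, with 9 of 10 estimates below 0, 0 called and a median log2 fold change of -0.28. Per 1000 CPM of the 10 summed markers, a denominator added after the data were seen, Gpr183 stood at 6.10 ± 1.45 in wild-type (range 4.19 to 7.67) and 4.26 ± 1.4 in Tau-P301L libraries (2.49 to 5.56). In that sum Cx3cr1 (mean 3620 CPM) and Siglech (mean 2390 CPM) weighed most. On the ratio scale the groups overlapped (exact permutation test, two-sided, p = 0.103). The part of the marker level in the Gpr183 result was not tested beyond this ratio.

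Gpr183 is also carried by B and T lymphocytes, so their markers are given beside it. Pax5, which defines the B cell lineage, had 0 reads in every library, and the 5 B cell markers found summed to 1.15 to 2.76 CPM in wild-type and 0 to 2.14 CPM in Tau-P301L libraries, with Cd79b the highest at a mean of 1.45 CPM. Of 9 T and NK cell markers, Cd3e, Cd3g, Nkg7, Gzma and Ncr1 had 0 reads in every library, and the sums were 0.682 to 2.76 and 0.318 to 1.43 CPM, with Cd3d highest at 0.378 CPM. The gene lies within Ubac2, which runs on the other strand. The 2 genes share 0 exonic bases in GENCODE M21, and Ubac2 averaged 7.74 ± 1.15 CPM in wild-type and 8.39 ± 2.31 CPM in Tau-P301L libraries (log2 fold change 0.13, SE 0.50).

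Of the genes that make and clear the oxysterol ligand, Ch25h and Cyp7b1 had the lowest mean levels, near the depth limit. Ch25h, the cholesterol 25-hydroxylase, averaged 0.503 ± 0.814 CPM over the 4 wild-type and 1.5 ± 1.49 CPM over the 5 Tau-P301L libraries (SD). Cyp7b1, which adds a further hydroxyl group, averaged 0.941 ± 1.24 and 3.29 ± 6.03 CPM. Both were too low to test. Of the 5 genes in the list 3 were tested and 0 passed, all with lower estimates, and the median log2 fold change was -0.46. The smallest p values were those of Cyp27a1, the sterol 27-hydroxylase (-0.46, edgeR unadjusted p = 0.345), and Cyp46a1, the neuronal cholesterol 24-hydroxylase (-0.53, unadjusted p = 0.535).

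**Figure D2:**
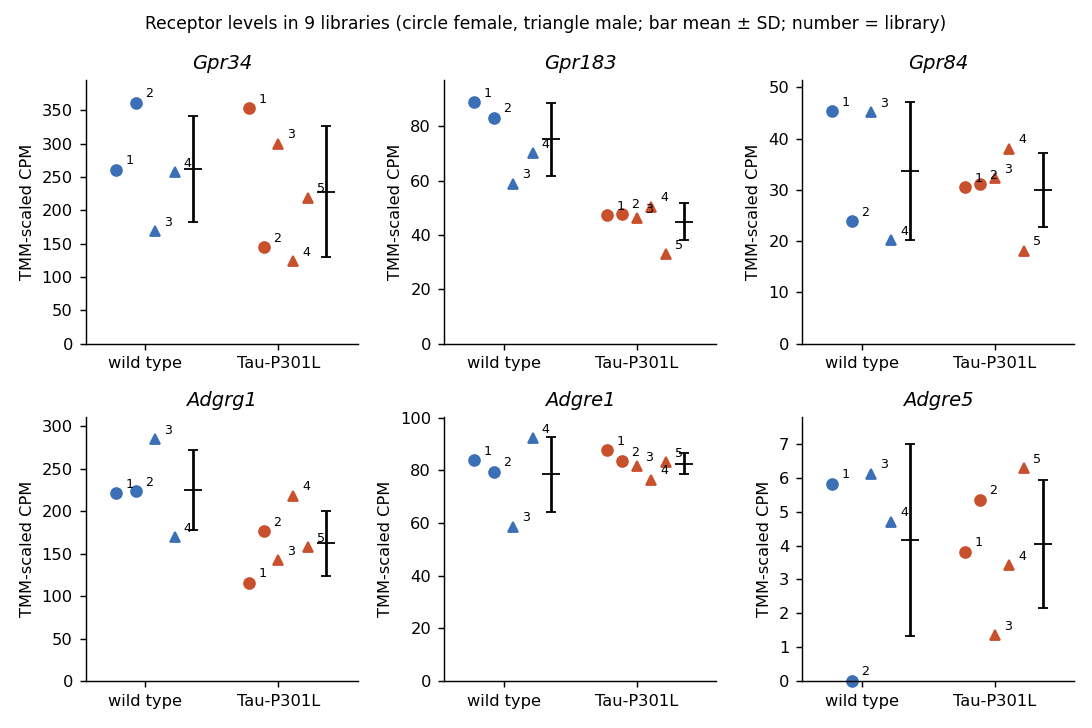
TMM-scaled CPM of the 6 receptors in the 4 wild-type (blue) and 5 Tau-P301L (orange) libraries, with circles for females, triangles for males, library numbers beside the points and mean ± SD as bars. Gpr183 is the panel in which the groups do not overlap (32.8 to 50.5 CPM below 58.9 to 88.9 CPM).

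Gpr34 (23890, chromosome X, 13622650 to 13640859) varied more between libraries than between genotypes. Wild-type libraries 1 to 4 held 261, 362, 168 and 258 CPM. Tau-P301L libraries 1 to 5 held 353, 145, 300.0, 124 and 219 CPM. Tau-P301L libraries 2 and 4 were below every wild-type library, while 1 and 3 were among the highest of all 9. edgeR estimated a log2 difference of -0.14 (SE 0.29, adjusted p = 0.941; exact permutation p = 0.476). Without Tau-P301L libraries 3 and 5 it was -0.50 (adjusted p = 0.992), and it turned to 0.08 without Tau-P301L library 2. Gpr34 lies within Cask on the opposite strand, with 0 shared exonic bases, and Cask stood at 105 ± 13.3 and 103 ± 28.2 CPM. Among 5 genes of lysophosphatidylserine metabolism 4 were tested and 0 passed (median log2 fold change -0.18). Abhd12, the lipase that breaks the ligand down, stood at 117 ± 31.2 CPM in wild-type and 89.6 ± 16.4 CPM in Tau-P301L libraries (log2 fold change -0.39, adjusted p = 0.807), and Ptdss2, a phosphatidylserine synthase, had a value of -1.04 (adjusted p = 0.862) at 3.8 ± 2.95 and 2 ± 1.9 CPM. Pla1a, a phospholipase that can release the ligand, was at 0 CPM in all 4 wild-type libraries and 0.127 ± 0.284 CPM in Tau-P301L libraries.

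Gpr84 (80910, chromosome 15, 103308233 to 103310670) formed a high and a low pair among the wild-type libraries. Libraries 1 and 3, a female and a male, held 45.4 and 45.1 CPM, while 2 and 4, again a female and a male, held 23.9 and 20.2 CPM. Tau-P301L libraries 1 to 5 held 30.5, 31.1, 32.3, 38.1 and 18.2 CPM, so that 4 of the 5 lay between the wild-type pairs. edgeR estimated a log2 difference of -0.15 (SE 0.36, adjusted p = 0.95; exact permutation p = 0.754), and the sign turned without wild-type library 1 (0.04) or 3 (0.12). Without Tau-P301L libraries 3 and 5 it was -0.01. The wild-type pairs also differed in the mitochondrial share of reads (20.0% and 16.5% in libraries 1 and 3, 10.3% and 9.30% in 2 and 4) and in summed microglial markers (14700 and 14000 against 10800 and 10800 CPM). In Tau-P301L libraries 2 and 3 the mitochondrial shares were 10.3% and 23.1% and the marker sums 8600 and 15200 CPM, at similar Gpr84 levels. Library 1 lay near library 2 in share and in Gpr84. Libraries 4 and 5, highest and lowest of this group in Gpr84, had shares of 18.6% and 15.4% and sums of 9380 and 13200 CPM. Per 1000 CPM of the markers the wild-type pairs stayed apart (3.08 and 3.21 against 2.2 and 1.88). The part of these measures in the Gpr84 values was not tested. In GENCODE M21, 681 of 1725 exonic bases of Gpr84 (39.5%) overlap Gm49482 on the other strand. Whether strand was used in counting is not stated, and without it reads of these 2 genes cannot be told apart there.

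Adgrg1 (14766, chromosome 8, 94974756 to 95014208) had the next lowest estimate after Gpr183. Wild-type libraries 1 to 4 held 222, 224, 285 and 169 CPM. Tau-P301L libraries 1 to 5 held 116, 176, 142, 218 and 158 CPM. Tau-P301L libraries 1, 3 and 5 were below every wild-type library, and 2 and 4 lay within the wild-type range. Means were 225 ± 47.3 CPM (SD, n = 4) and 162.1 ± 38.6 CPM (SD, n = 5), with a log2 fold change of -0.49 (SE 0.24, unadjusted p = 0.0562 and adjusted p = 0.776 in edgeR). The exact permutation test of mean log2 CPM gave p = 0.0635. With 1 library left out the exact permutation p ran from 0.0357 (without wild-type library 4) to 0.179 (without wild-type library 3), and leaving out wild-type 1, wild-type 2, Tau-P301L 1, Tau-P301L 3 or Tau-P301L 5 gave p = 0.143 each. Without Tau-P301L libraries 3 and 5 the log2 difference was -0.38 (edgeR unadjusted p = 0.158). The estimate kept its sign in all 20 alternative fits, from -0.66 to -0.35. Per 1000 CPM of the microglial markers Adgrg1 stood at 17.9 ± 2.95 and 15.4 ± 6.12, with overlapping groups (exact permutation p = 0.444).

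Adgre1 (13733, chromosome 17, 57358581 to 57483529) varied least of the 6 in the Tau-P301L libraries. Wild-type libraries 1 to 4 held 84.0, 79.4, 58.5 and 92.2 CPM. Tau-P301L libraries 1 to 5 held 87.7, 83.6, 81.6, 76.5 and 83.1 CPM, a coefficient of variation of 4.87% against 18.3% in wild-type, where that of Gpr183 was 17.9%. Wild-type library 3 was the lowest of all 9 and library 4 the highest. edgeR estimated a log2 difference of 0.08 (SE 0.25, adjusted p = 0.965; exact permutation p = 0.675), and the sign turned without wild-type library 3 (-0.05). Gpr183 and Adgre1 have similar levels per length, and library scaling multiplies both alike, so their order within a library does not depend on it. Gpr183 was above Adgre1 in wild-type libraries 1, 2 and 3, with ratios of 1.18, 1.17 and 1.12, and below it in library 4 (0.847). In the Tau-P301L libraries it was below in 5 of 5, with ratios of 0.44 to 0.735. This pair was chosen after the values were seen, so no test is given.

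**Figure D3:**
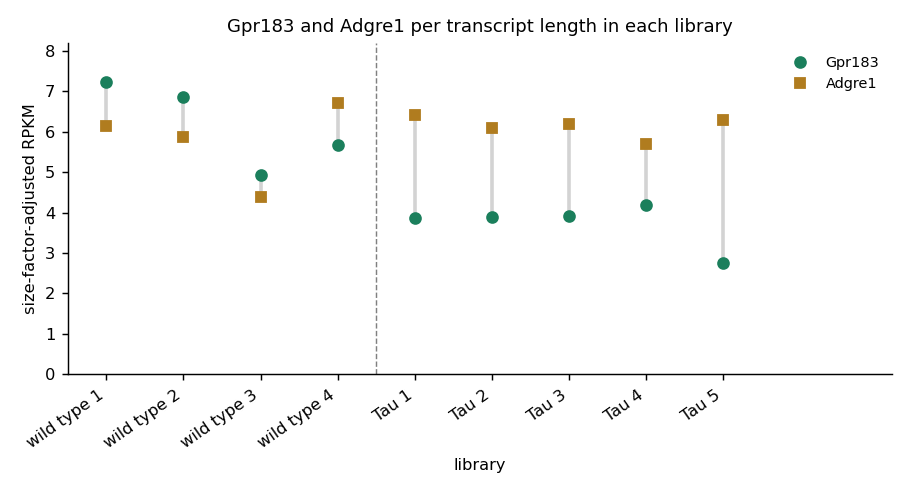
Size-factor-adjusted RPKM of Gpr183 (green circles) and Adgre1 (brown squares) in each library, wild type left and Tau-P301L right of the dashed line. Gpr183 is the lower gene in all 5 Tau-P301L libraries and in wild-type library 4.

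Adgre5 (26364, chromosome 8, 83723245 to 83741311) was barely detected, with 99 reads in all 9 libraries together. Wild-type libraries 1 to 4 held 19, 0, 16 and 17 reads, and Tau-P301L libraries 1 to 5 held 12, 15, 3, 8 and 9. Library 2 of the wild type had no read, which at its depth allows up to 1.12 CPM before scaling, while the other wild-type libraries stood at 4.71 to 6.12 CPM. Tau-P301L libraries ranged from 1.35 to 6.28 CPM. The log2 fold change was -0.03 with an SE of 0.84 (edgeR adjusted p = 0.996), so a difference was not detectable at this depth. The sign turned in 7 of 19 alternative fits. Adgre5 shares 895 of 3757 exonic bases (23.8%) with Ddx39a, a helicase gene on the other strand that stood at 4.27 ± 2.89 and 4.52 ± 3.93 CPM. Their reads cannot be told apart there without strand. Blood leucocytes carry Adgre5, and the monocyte markers summed to 27.2 to 80.1 CPM in wild-type and 44.0 to 84.2 CPM in Tau-P301L libraries, led by Ccr2 (mean 40.3 CPM). Ly6c2, the defining monocyte gene, averaged 0.0397 CPM. Neutrophil markers summed to 0.341 to 80 and 1.27 to 279 CPM, led by Ngp (mean 12.4 CPM). Border macrophage markers summed to 33.7 to 131 and 54.6 to 100 CPM, led by Mrc1 (44.3 CPM). Their part in the levels of Adgre1 and Adgre5 was not tested.

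**Figure D4:**
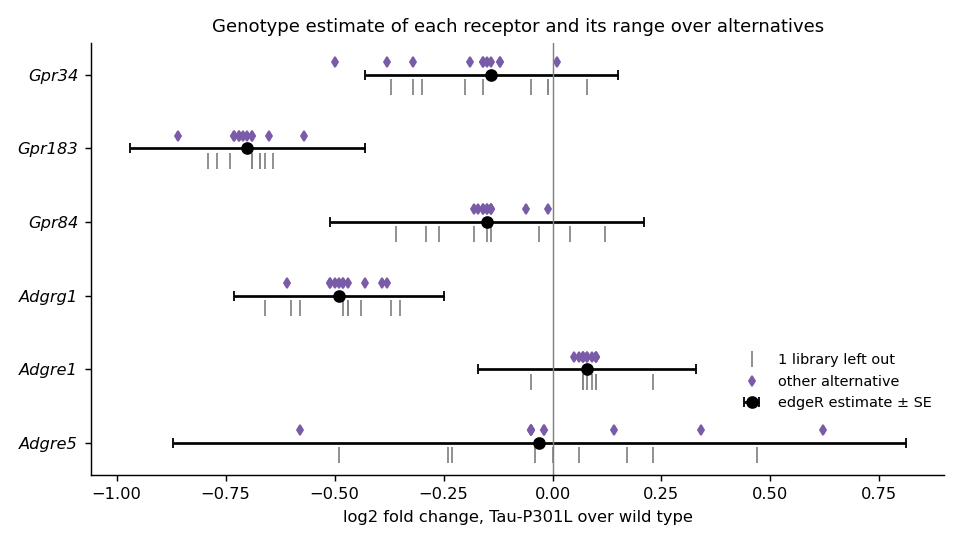
Log2 fold change of each receptor for Tau-P301L over wild type: black points with SE from edgeR, grey ticks for fits that leave out 1 library and violet diamonds for the other alternatives. All values of Gpr183 (-0.86 to -0.57) and Adgrg1 (-0.66 to -0.35) lie left of 0, while those of the other 4 genes lie on both sides or, for Adgre1, mostly right of it.

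Sex, the other labelled factor, gave 0 calls among the 6 (edgeR, 0.049% of all genes called, 0.0327% higher in males and 0.0163% lower), and 0 had an unadjusted p under 0.05. With DESeq2 and limma-voom 0 of the 6 passed too. Gpr34 had the largest estimate in size, at -0.37 for males over females (SE 0.29, unadjusted p = 0.224), with means of 280 ± 101 CPM in the 4 females and 214 ± 69.8 CPM in the 5 males. That estimate was -0.09 without Tau-P301L library 1 and -0.62 without library 2 (edgeR unadjusted p = 0.0452, adjusted p = 1.0). Gpr183 had a value of -0.27 (SE 0.27). Its group means were 86.0 and 64.5 CPM in wild-type females and males and 47.6 and 43.2 CPM in Tau-P301L females and males. The genotype effect was not shown to differ between the sexes for any of the 6, with 0 called against 0% of the 13302 genes tested for this term and 0 at an unadjusted p under 0.05. For Gpr183 the effect in males minus that in females was 0.28 (SE 0.57, unadjusted p = 0.63), and for Adgrg1 it was 0.22 (SE 0.51).

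The 6 genes varied largely apart from each other across the 9 libraries. Over the 15 pairs, Pearson's r of log2 CPM ran from -0.71 to 0.52, with 6 positive and 9 negative, and 0 pairs passed after Benjamini-Hochberg adjustment. The strongest was Adgrg1 with Adgre1 (n = 9, r = -0.71, exact permutation p = 0.0271, adjusted 0.406; Spearman's rho = -0.57, p = 0.121, adjusted 0.799). It weakened to r = -0.40 without wild-type library 3 and Tau-P301L library 1, the 2 farthest from the median of Adgrg1. Gpr183 and Adgrg1, the 2 genes with the lowest genotype estimates, had r = 0.52 (exact permutation p = 0.148, adjusted 0.555) and rho = 0.73 (p = 0.0311, adjusted 0.466), and r = 0.37 without wild-type libraries 1 and 2. Each genotype held fewer than 6 libraries, so no value within a genotype is given.

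Ranked over the 9 libraries against 7363 genes with a mean of at least 10 CPM, the genes whose pattern was most like that of Gpr183 were Psmc1, a proteasome ATPase (Spearman's rho 0.983, as a description), Bag6, a chaperone of membrane proteins (0.967), and Epha2, an ephrin receptor (0.933). Their means were 18.5, 34.3 and 18.1 CPM in wild-type and 8.65, 17.3 and 6.16 CPM in Tau-P301L libraries. For Adgrg1 they were Ptpn23 (1.0), Fam53b (0.983) and the splicing factor Srrm2 (0.983). For Gpr34 they were Tmem170b (0.933), Rsbn1 (0.933) and Rbm18 (0.917), and for Gpr84 the kinase gene Aak1 (0.95), Cdc40 (0.933) and Paxip1 (0.933). Adgre1 was most like Katnal1 (0.983), Atpif1 (0.967) and Gm16973 (0.967), and Adgre5 most like Npnt (0.933), Cstf1 (0.933) and Eprs (0.917). Pearson's r of log2 CPM was lower for some, at 0.60 for Bag6, 0.61 for Gm16973 and 0.61 to 0.67 for the genes like Adgre5. For the other genes named it was 0.84 to 0.96. All were chosen by their pattern, so the lower Tau-P301L means of the genes like Gpr183 are not separate support. These values describe 9 libraries that share depth and composition, and carry no test.

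Genes around the receptors likewise gave 0 calls in edgeR over all genes in each list described here. Of the 27 adhesion receptors listed 12 were tested, 4 with higher and 8 with lower estimates (median log2 fold change -0.17). These 12 include Adgrg1, Adgre1 and Adgre5 themselves. Besides Adgrg1 the smallest p was that of Adgrl1, a latrophilin of synapses (44 ± 18.2 CPM in wild-type and 31.4 ± 12.1 CPM in Tau-P301L libraries, -0.56, adjusted p = 0.814). Of 34 other myeloid class A receptors 28 were tested, 16 higher and 12 lower (median 0.05). Gpr65, a proton sensor, stood at 12.8 ± 6.23 CPM in wild-type and 29.2 ± 11.1 CPM in Tau-P301L libraries (log2 fold change 1.14, SE 0.45, adjusted p = 0.733). C5ar1, the receptor for the complement fragment C5a, stood at 67.1 ± 27.4 and 36.1 ± 9.8 CPM (-0.85, SE 0.33, adjusted p = 0.733).

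Partners of the adhesion receptors split, with 8 of 10 tested, 4 estimates higher and 4 lower (median 0.07). Tgm2, which encodes transglutaminase 2, a ligand of Adgrg1, stood at 24.3 ± 2.36 CPM in wild-type (range 21.5 to 27.2) and 11.4 ± 7.91 CPM in Tau-P301L libraries (1.4 to 23.6; log2 fold change -1.13, SE 0.48, adjusted p = 0.772). Cd9, a tetraspanin of the family that binds Adgrg1, stood at 82.1 ± 31 and 167 ± 86.7 CPM (1.0, SE 0.37, adjusted p = 0.707). The collagen III gene Col3a1 averaged 0.267 CPM and Cd55, the ligand of Adgre5, 2.24 CPM, and both were too low to test. Among G-protein subunits 16 of 20 were tested, 8 higher and 8 lower (median -0.06), led by Gnb4 at 2.26 ± 1.61 and 9.61 ± 5.81 CPM (2.02, SE 0.76, adjusted p = 0.71), whose groups did not overlap (1.31% of all genes in the higher direction), and Gna11 (-0.75, adjusted p = 0.789).

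Of the kinases, arrestins and RGS proteins that switch receptors off, 13 of 15 were tested, 8 higher and 5 lower (median 0.10). The receptor kinase Grk5 stood at 6.84 ± 4.01 and 17.5 ± 13.3 CPM (1.13, SE 0.50, adjusted p = 0.776). Grk2, the most general of these kinases, stood at 70.7 ± 11.6 and 43.1 ± 18.6 CPM (-0.72, SE 0.34, adjusted p = 0.776), and all 5 Tau-P301L values (14.8 to 58.2) were below the wild-type ones (58.8 to 85.7) by a narrow gap, as for 1.18% of all genes tested. Medians of these 7 lists moved by at most 0.02 under RLE and upper-quartile scaling and kept their sign.

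**Figure D5:**
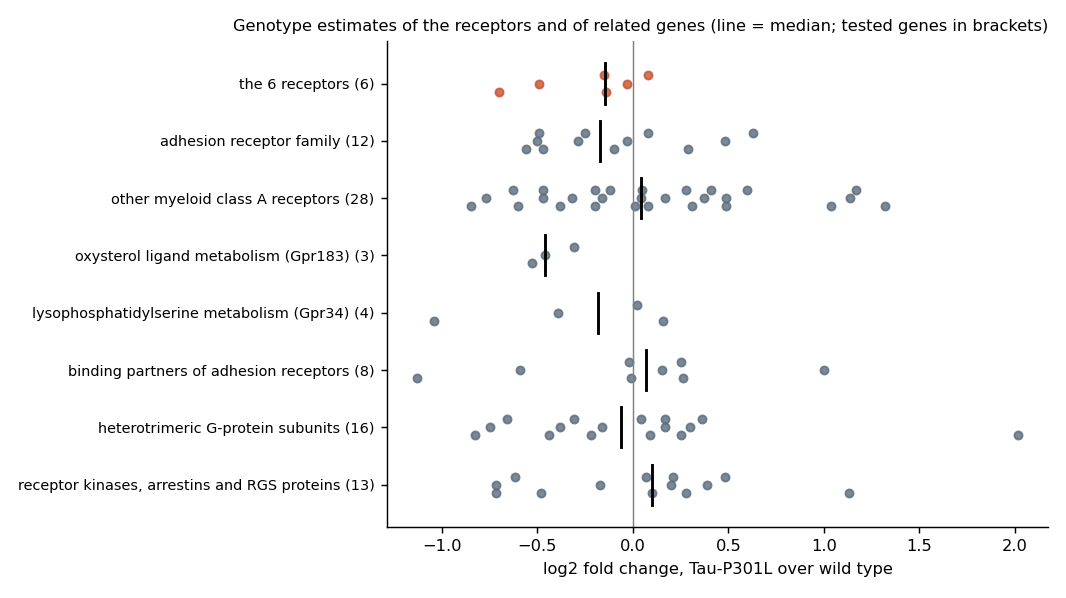
Log2 fold change, Tau-P301L over wild type, of the 6 receptors (orange) and of the tested genes in 7 lists around them (grey), with the median of each as a black line. The list of adhesion receptors includes Adgrg1, Adgre1 and Adgre5, which are thus drawn in both places. Medians lie between -0.46 (oxysterol genes, 3 tested) and 0.10, and no point passed an adjusted p of 0.05.

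Markers of other brain cells were detected too, and 0 of them passed the test for genotype. Slc1a2 of astrocytes averaged 294 CPM, Snap25 of neurons 72.8 and Pecam1 of endothelium 14.9, while the endothelial gene Cldn5 had 0 reads throughout. Summed astrocyte markers ran from 317 to 419 CPM in wild-type and 317 to 675 CPM in Tau-P301L libraries, and neuronal markers from 111 to 235 and 82.6 to 195 CPM. Summed endothelial markers ran from 10.9 to 31.8 and 6.84 to 39.1 CPM. Summed oligodendrocyte markers ran from 519 to 715 and 332 to 1460 CPM, with 3 estimates higher, 4 lower and 0 called. Among them Mbp, a myelin protein gene named here after its values were seen, stood apart between the groups, at 63.9 to 95.3 CPM in wild-type and 30.9 to 56.9 CPM in Tau-P301L libraries. Its log2 difference was -0.95 (edgeR unadjusted p = 0.00437, adjusted p = 0.593), in the same direction as the estimates of Gpr183 and Adgrg1. Neurons carry Adgrl1 and oligodendrocyte precursors carry Adgrg1, and the part of such cells in these levels was not tested.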

How the data were processed

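Each of the 9 samples had 1 table with reads aligned uniquely to each gene model, as whole-number counts per the file headers, and RPKM that the authors adjusted by a factor for each library, per the file headers. Reads were aligned with GSNAP to GRCm38, per the submitters' processing notes. Tool versions, the annotation and any filter on reads are not given in these sources. Both deposited columns carry 1 measurement: RPKM over count was a gene constant times a library factor within a relative deviation of 2.0e-13. All tests used the counts. RefSeq symbols of GRCm38.p6 matched 31049 of 36528 gene numbers, and overlaps came from GENCODE M21 of the same build.

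Genotype and sex effects came from 1 edgeR 4.0.16 quasi-likelihood fit (R 4.3.3, TMM, default filter, robust, 6 residual degrees of freedom) over 12250 genes, with Benjamini-Hochberg adjustment at 0.05, and the interaction from a second fit. SEs derive from the F statistic. Log2 CPM used a prior count of 2. DESeq2 1.42.0, limma-voom (limma 3.58.1), other scalings, filters and covariates, single sexes and left-out libraries were alternatives. The test was checked on simulated counts. The 6 members, the gene lists and the alternatives were chosen with earlier results of these data known. The genes named are the 6, the 2 of smallest p in each list of related genes, the most abundant marker of each other cell type with defining markers at 0, and the 3 of highest Spearman's rho to each member. Others (Ch25h, Cyp7b1, Pla1a, Col3a1, Cd55, Ly6c2, Adgrl3 and overlapping genes) were named after their values were seen. Ighm, a listed B cell marker, was not among the gene numbers. Some listed genes and lists are not reported here.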

Additional observations from a re-analysis of the deposited data

Results flagged for a closer look

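Of the 12 groups of values (6 receptors in 2 genotypes), 1 held a library far from the rest, and chance alone marks about 1 group in 20. Gpr183 in Tau-P301L library 5 stood at 32.8 CPM, below the 46.2 to 50.5 CPM of the other 4 Tau-P301L libraries, with a gap of 0.758 of the group's range against a critical value of 0.71 (Dixon). This library was also the shallowest, at 1.49 M reads, and its 47 Gpr183 reads were the fewest of the 9. Without it the log2 fold change of Gpr183 was -0.64 (edgeR unadjusted p = 0.0314, adjusted p = 0.867).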

How the results depend on the processing

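In every alternative run, 0 of the 6 receptors passed for genotype, sex or their interaction, the last under alternatives chosen after seeing the data. Gpr183 and Adgrg1 kept a lower estimate in all 20 fits. Over left-out libraries Gpr183 ran from -0.79 to -0.64 (lowest adjusted p = 0.418, edgeR) while its exact permutation p, 0.0179 to 0.0286, is fixed at the smallest value possible for groups that do not overlap and says nothing on stability. The number of genes called for genotype moved from 1 to 27 with DESeq2 and 26 without a low-count filter, and to 0 without Tau-P301L libraries 3 and 5, in females alone and in males alone. With 1 library left out it was 0 to 1. The genotype sign of Gpr34 turned in males alone (0.01), and that of Adgre5 with limma-voom (0.34), without Tau-P301L libraries 3 and 5 (0.14) and in females alone (0.62). Over left-out libraries Gpr34 ran from -0.37 to 0.08, Gpr84 from -0.36 to 0.12, Adgre1 from -0.05 to 0.23 and Adgre5 from -0.49 to 0.47. Sex estimates over left-out libraries ran from -0.62 to -0.09 for Gpr34, -0.31 to 0.12 for Gpr84, -0.21 to 0.00 for Adgre1 and -0.25 to 0.73 for Adgre5. Exact permutation p ran from 0.357 to 0.857 for Gpr84, 0.179 to 0.829 for Adgre1, 0.304 to 0.971 for Adgre5 and 0.0357 to 0.179 for Adgrg1, with libraries left out. The cause of these moves was not tested. Adgre5 gave no value at a mean CPM of at least 5. No paired analysis was possible because the labels number no replicates and tie no wild-type library to a Tau-P301L library by litter, batch or day, and the library numbers used here only name samples. Depth limits Adgre5 most, at 0 to 19 reads a library.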
